A study of Mus musculus with 6 samples.

Results

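The transcripts of 9 surface proteins were followed across sorted blood progenitors of the mouse. They were Kit (cKit), Ly6a (Sca-1), Cd34, Flt3, Cd48, Slamf1 (CD150), Fcgr3 (CD16), Il7r and Ptprc (CD45). The first 8 belong to proteins that the sort of these cells used as positive or negative gates. Ptprc is in no gate that the labels state. The 9 genes were taken by name from tables of 23538 genes, and all 9 had counts. Of the 6 populations, 4 lie at the top of the blood tree: stem cells (HSC) and 3 kinds of multipotent progenitor (MPP2, MPP3, MPP4). The other 2 are committed further, to all myeloid cells (CMP) or to platelets and red cells (MEP). Each was given as 3 libraries from Mof heterozygous mice (genotype Mof -/+) and 3 from wild-type mice, 36 libraries in all. Mof, gene symbol Kat8, is the lysine acetyltransferase that acetylates histone H4 at lysine 16. Each library was made by CEL-Seq2, a 3' end counting method, from 15 sorted bone marrow cells. The same gates are stated for both genotypes. The labels do not state the allele, the deleted part of the gene, or the strain, sex and age of the mice.

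Blood stem and progenitor cells are told apart by combinations of such proteins. Kit, Flt3 and the IL-7 receptor bind growth factors that keep stem cells, early lymphoid and myeloid progenitors, and lymphoid precursors alive. CD48 and CD150 belong to the SLAM family of adhesion receptors, and Sca-1 is a small lipid-anchored protein used to mark stem cells of the mouse. A gate is set on the protein, so the transcript is a separate measurement of the same cells.

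The stated gates put HSC and the MPP populations into the LSK compartment, which lacks lineage proteins and carries Sca-1 and cKit. Within it, HSC were sorted without CD34, Flt3 and CD48 and with CD150, whereas every MPP population carried CD34 and CD48. MPP2 also carried CD150, MPP4 carried Flt3, and MPP3 carried neither. CMP and MEP were sorted with cKit but without lineage proteins, Sca-1 and IL7r. CMP carried CD34 and low CD16/32, and MEP carried neither. Each genotype was sequenced in 3 pools (HSC alone, MPP2 to MPP4 together, CMP and MEP together), 6 pools in all. Genotype and pool therefore cannot be told apart, and neither can LSK against CMP and MEP or HSC against MPP. Comparisons among the MPP populations and of CMP with MEP lie within a pool. No label says whether a group's 3 libraries stem from separate mice, so p-values measure the spread between libraries, which may be technical.

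Library totals ran from 1577 to 123765 counts, with a median of 41227. Of the 36 libraries, 6 held at most 12339 counts: heterozygous HSC library 2, all 3 wild-type MPP2 libraries and wild-type MPP3 libraries 1 and 2. One count in the shallowest library is worth 634 CPM (the count as a share of the library's gene total, scaled up), so a 0 there says little. By genes of other cells 9 libraries stood apart, 3 of them also shallow. Summed neutrophil genes (10 genes) passed 10000 CPM in 7 of them, and summed B cell genes (9 genes) passed 5000 CPM in wild-type HSC library 3 and wild-type MPP2 library 3. The label HSC goes against wild-type HSC library 3, whose 7 HSC markers summed to 65.4 CPM, against 2223 and 2888 CPM in the other wild-type HSC libraries. Erythroid genes, which mark MEP, summed to 2075 to 2722 CPM in heterozygous and 1572 to 2166 CPM in wild-type MEP, but also to 3975 CPM in heterozygous MPP4 library 3. The targeted gene could not check the labels. Kat8 had 11 counts in 9 of 18 heterozygous libraries and 12 counts in 7 of 18 wild-type libraries.

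The member genes lie on chromosomes 1, 5 and 15 (GENCODE M21, GRCm38). Cd48 (chr1:171682009-171705258) and Slamf1 (chr1:171767127-171801184) are neighbours 61.9 kb apart, and Fcgr3 (chr1:171051174-171064935) lies 617 kb from Cd48. The 150 bases before the start of Cd34, Flt3 and Il7r are shown, 3 members that passed edgeR in a comparison of populations or genotypes. They are given 5' to 3' on the strand of the gene, from RefSeq's GRCm38.p6 table, in which 8 of the 9 members matched; Ly6a did not. Capitals mark the core letters of ETS factor sites, GGAAG, searched on both strands (CTTCC on the other). The Cd34 stretch is chr1:194938671-194938820 on the plus strand. The Flt3 stretch is chr5:147400490-147400639 on the minus strand, and the Il7r stretch is chr15:9529877-9530026 on the minus strand.
Cd34: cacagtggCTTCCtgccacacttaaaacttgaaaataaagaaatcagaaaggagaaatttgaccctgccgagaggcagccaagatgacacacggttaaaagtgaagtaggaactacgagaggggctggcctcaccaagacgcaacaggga
Flt3: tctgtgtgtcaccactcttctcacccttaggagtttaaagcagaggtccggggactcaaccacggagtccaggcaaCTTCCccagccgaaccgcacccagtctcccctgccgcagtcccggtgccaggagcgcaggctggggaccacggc
Il7r: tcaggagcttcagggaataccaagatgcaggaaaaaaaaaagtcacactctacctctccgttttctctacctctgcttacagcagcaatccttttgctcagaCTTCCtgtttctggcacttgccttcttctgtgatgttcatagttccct
Each stretch held 1 copy, all as CTTCC. These letters were found in 47.7% of 32851 promoter stretches of the same length, so 1 copy is common. The core letters of RUNX sites (TGTGGT, or ACCACA) and of GATA sites (AGATAA, or TTATCT) were in none of the 3, and in 8.40% and 5.65% of all stretches. Stretches not shown held other matches. Ptprc, which also passed edgeR, had the GATA letters in 1 stretch and 2 ETS copies in another, and Cd48 had the RUNX letters.

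**Figure D1:**
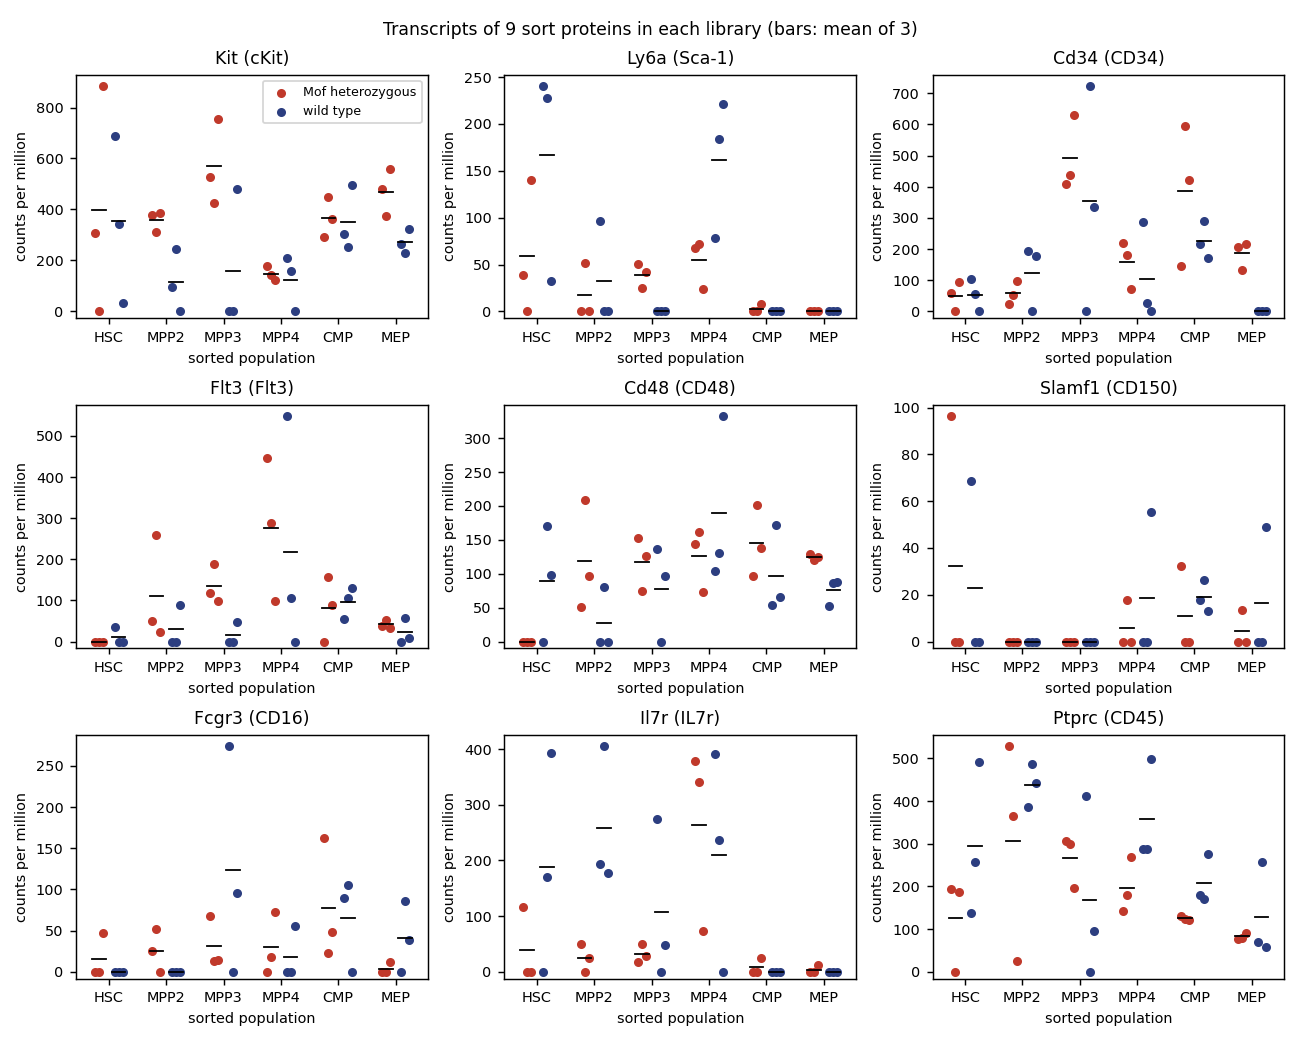
CPM (y axis, linear, own range per gene) of the 9 genes in each of 36 libraries, by sorted population (x axis). Points are libraries, with Mof heterozygous left of wild type, and bars are means of 3. Ly6a and Il7r are at or near 0 in CMP and MEP, and Cd34 is at 0 in the 3 wild-type MEP libraries and between 133 and 217 CPM in the 3 heterozygous ones.

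Kit, the receptor of stem cell factor, was the most counted member with 633 counts and was the one gated as positive in all 6 populations. Its level in CMP and MEP was steady: 292, 449 and 364 CPM in heterozygous CMP, against 305, 251 and 497 CPM in wild-type CMP. MEP held 480, 373 and 559 CPM in heterozygous libraries, against 264, 229 and 322 CPM in wild-type ones. Every CMP and MEP library had Kit counts, and the heterozygous MEP libraries all lay above the wild-type ones, as for 6.78% of 6501 genes. In LSK populations Kit varied much more, from 0 to 885 CPM, and 19 of 24 LSK libraries had a count, 4 of the 5 without one being among the 6 shallow libraries and the fifth holding 18040 counts. Summed over libraries, Kit stood at 334 CPM in LSK populations and 379 CPM in CMP and MEP, a ratio of 0.88 (exact 95% interval 0.75 to 1.04, counting error only). The difference on the log2(rescaled count + 1) scale was -1.06 ± 0.41 (SE), and it did not pass limma (adjusted p = 0.0951), where 7.83% of 6501 genes passed. All genes had a median of -0.26 in this comparison. With the libraries scaled by TMM the same difference was -1.27 and passed limma (adjusted p = 0.0122). Of 6708 genes tested with TMM, 132 passed as higher and 1445 as lower, and the median was -0.45. Relative to the median of all genes Kit was -0.80 with total scaling and -0.82 with TMM. Without the 6 shallow libraries it was -0.34 (limma adjusted p = 0.496), and by edgeR -0.45 (adjusted p = 0.190). By mean log2 level the order was MEP, CMP, HSC, MPP3, MPP2 and MPP4, and the ranges of all neighbours overlapped. MPP4 had the lowest Kit over both genotypes, with 177, 144 and 122 CPM in heterozygous libraries and 209, 157 and 0 CPM in wild-type ones. Among wild types MPP2, whose libraries are all shallow, was lower when pooled, at 118 CPM against 148 CPM in MPP4.

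Flt3, the receptor of Flt3 ligand on early lymphoid and myeloid progenitors, was highest in MPP4, the population sorted for its protein. MPP4 held 447, 287 and 97.6 CPM in heterozygous libraries and 548, 105 and 0 CPM in wild-type ones. In the LSK populations sorted without Flt3, heterozygous libraries ranged from 0 to 260 CPM (median 50.3 CPM, 9 libraries) and wild-type ones from 0 to 88.5 CPM (median 0 CPM, 9 libraries). HSC had 1 count of Flt3 over 6 libraries, in a wild-type one. The groups overlapped, since heterozygous MPP2 library 2 reached 260 CPM and wild-type MPP4 library 3 had no Flt3. That last library also held the largest neutrophil sum of all libraries, at 33204 CPM. Pooled over libraries, Flt3 stood at 316 CPM in MPP4 and 73.4 CPM in HSC, MPP2 and MPP3, 4.31-fold (exact 95% interval 2.96 to 6.39). The limma difference was 1.81 ± 0.47 (adjusted p = 0.0550), where 0.385% of 6501 genes passed. It passed edgeR on the recovered counts (3.32 on the log2 scale, adjusted p = 0.00154), where 7.23% of 1633 genes passed. It also passed limma without the 9 libraries that stood apart (2.56, adjusted p = 9.59e-04). Within the MPP pools, against MPP2 and MPP3 alone, the difference was 1.38 ± 0.49 by limma (adjusted p = 0.271; 0.261% of genes passed) and 2.23 by edgeR (adjusted p = 0.0405; 4.35% passed). Without the shallow libraries this was 0.91 (limma adjusted p = 0.454). Flt3 transcripts were also found in CMP, which had no Flt3 gate, at 0, 157 and 88.9 CPM in heterozygous libraries and 53.9, 106 and 131 CPM in wild-type ones. MEP had less, from 34.2 to 53.3 CPM in heterozygous and from 0 to 57.1 CPM in wild-type libraries.

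Il7r, the receptor chain that binds IL-7 and serves lymphoid precursors, was gated only in CMP and MEP, as absent. There it had 4 counts over 12 libraries: 24.2 CPM in heterozygous CMP library 3, 11.4 CPM in heterozygous MEP library 3, and 0 in the other 10. In LSK populations, 9 of 12 heterozygous libraries had a count (median 39.0, highest 379 CPM), and so had 9 of 12 wild-type ones (median 185, highest 405 CPM). MPP4 was highest, with 379, 341 and 73.2 CPM in heterozygous libraries and 391.7, 236 and 0 CPM in wild-type ones. Of 24 LSK libraries, 16 lay above every CMP and MEP library. Pooled, Il7r stood at 160 CPM in LSK populations and 4.36 CPM in CMP and MEP, 36.7-fold (exact 95% interval 14.0 to 137). It rose in LSK populations by 1.90 ± 0.36 by limma (adjusted p = 3.95e-04), and by 4.51 by edgeR (adjusted p = 1.78e-05), where 29.6% of 1633 genes passed. Without the 9 libraries that stood apart it was 1.87 (limma adjusted p = 0.00293). Within the same fit the difference was 1.29 ± 0.52 in heterozygous libraries (limma adjusted p = 0.389) and 2.52 ± 0.52 in wild-type ones (limma adjusted p = 0.00216). The change with genotype was -1.22 ± 0.73 and did not pass limma (adjusted p = 0.998).

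B cell genes were high in many, but not all, of the libraries with Il7r. All 9 B cell markers in the tables had counts in LSK libraries, and their sum ranged from 0 to 4289 CPM in heterozygous and from 0 to 5627 CPM in wild-type LSK libraries. In CMP and MEP it ranged from 0 to 194 CPM in heterozygous and from 39.3 to 2772 CPM in wild-type libraries. In MPP4 the sum was high in all 6 libraries, 3439 to 4289 CPM in heterozygous and 2951 to 3991 CPM in wild-type ones. The defining gene Cd79a, a signalling chain of the B cell receptor, stood at 701 CPM in heterozygous and 233 CPM in wild-type MPP4, and Pax5, a B lineage factor, at 9.29 and 0 CPM. The 15 libraries with a B cell sum of at least 1000 CPM held 122 of the 141 Il7r counts. All 6 MPP4 libraries were among them, and MPP4 alone held 91 Il7r counts. Of the 15, 12 had an Il7r count. Those without were wild-type MPP4 library 3, wild-type MEP library 2 (2772 CPM) and wild-type MPP3 library 2 (1447 CPM). Of the 21 libraries under 1000 CPM, 8 had Il7r, with 19 counts. The part of B lineage cells in the Il7r level was not tested; Il7r is also a gene of B cell precursors.

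**Figure D2:**
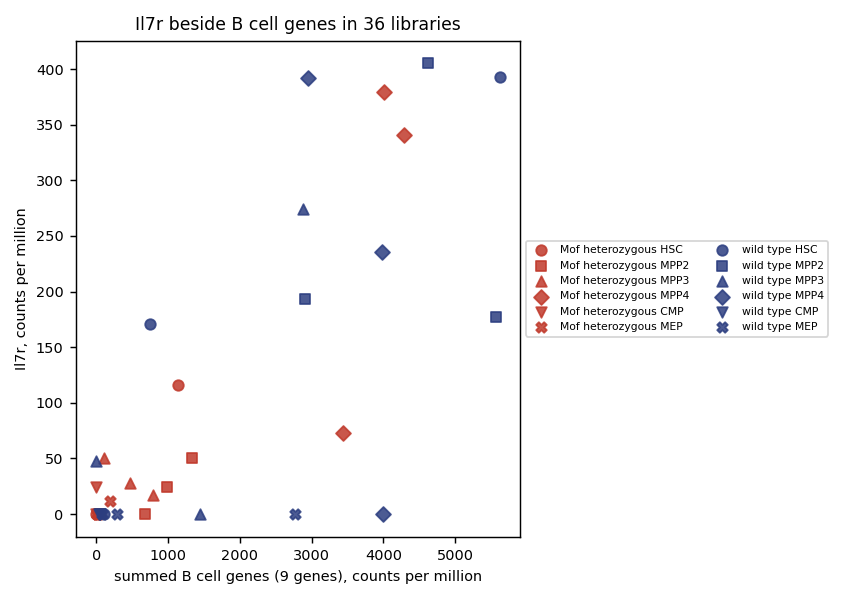
Il7r (y axis, CPM) against the summed level of 9 B cell genes (x axis, CPM), 1 point per library, coloured by genotype with 1 symbol per population. Libraries with Il7r above 100 CPM all have a B cell sum of at least 741 CPM, while wild-type MPP4 library 3 has 3991 CPM of B cell genes and no Il7r.

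Of the SLAM family receptors, Cd48, a ligand and adhesion protein of most blood cells, was gated as present in MPP populations and absent in HSC. No heterozygous HSC library had a Cd48 count, whereas wild-type HSC had 0, 171 and 98.1 CPM. The 9 heterozygous MPP libraries ranged from 50.3 to 208 CPM (median 125.7 CPM) and the 9 wild-type ones from 0 to 333 CPM (median 96.0 CPM). In heterozygotes every MPP library was above every HSC library. The 0s include HSC library 2, the shallowest, where 1 count is worth 634 CPM. How many of all genes separate in this way was not counted. Pooled, the heterozygous MPP libraries were at least 2.99-fold over the limit that 0 counts in 3 HSC libraries allow (3 counts, 40.0 CPM). In wild types the groups overlapped. The limma difference of MPP populations from HSC was 1.25 ± 0.43 (adjusted p = 0.195), where 0.446% of genes passed. It was 2.50 ± 0.61 in heterozygous libraries (limma adjusted p = 0.0287) and 0.01 ± 0.61 in wild-type ones (limma adjusted p = 0.999). In the heterozygous comparison 64 of 6501 genes passed, and all genes had a median of 0.53. The difference between the genotypes, 2.49 ± 0.86, did not pass limma (adjusted p = 0.138), against a median of 0.76 over all genes. Wild-type HSC library 3, with 98.1 CPM of Cd48, is the one low in HSC markers. Wild-type HSC library 2, with 171 CPM of Cd48, had 741 CPM of B cell genes and 2223 CPM of HSC markers. Heterozygous HSC library 1 had more B cell genes, 1137 CPM, and no Cd48 count. The part of other cells in the Cd48 level was not tested. Outside the gates, Cd48 was found in all 12 CMP and MEP libraries, at 97.4 to 202 CPM in heterozygous and 53.9 to 172 CPM in wild-type CMP. In MEP it lay at 120 to 130 CPM in heterozygous and 52.8 to 87.9 CPM in wild-type libraries. These did not overlap, which held for 12% of 6501 genes in MEP.

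Slamf1, a self-binding receptor and the stem cell marker CD150, had 21 counts over all libraries and did not pass the filter on low values. In HSC, 1 library of each genotype had it, at 96.4 CPM in heterozygous library 1 and 68.8 CPM in wild-type library 1. MPP2, sorted as CD150-positive, had no Slamf1 count in 6 libraries, and neither had MPP3, sorted as negative. MPP4, also negative, had 1 count in each genotype. Of the 21 counts, 12 lay outside the CD150 gates. CMP held 32.5, 0 and 0 CPM in heterozygous libraries and 18.0, 26.4 and 13.1 CPM in wild-type ones, and MEP held 0, 13.3 and 0 CPM in heterozygous libraries and 0, 0 and 48.8 CPM in wild-type ones. The 6 MPP2 libraries held 134376 counts together, so 0 counts allow a level of up to 22.3 CPM. Pooled over libraries, Slamf1 stood at 23.0 CPM in HSC and MPP2 (7 counts in 2 libraries) and 3.63 CPM in MPP3 and MPP4 (2 counts in 2 libraries), 6.34-fold with an exact 95% interval of 1.21 to 62.6. In a fit without the filter the CD150-positive populations differed from the negative LSK populations by 0.14 ± 0.26 (limma adjusted p = 0.893). At this depth a difference across the CD150 gate was not detectable beyond the spread between libraries.

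Ly6a, which encodes Sca-1, was higher in the LSK compartment than in CMP and MEP, with overlap. It had 1 count in 12 CMP and MEP libraries, in heterozygous CMP library 3 (8.08 CPM), and none in MEP. In LSK populations 9 of 12 heterozygous libraries had a count (median 40.2, highest 140 CPM), as had 7 of 12 wild-type ones (median 55.5, highest 241 CPM). Of 24 LSK libraries 16 lay above every CMP and MEP library, and the rest were at 0. The highest levels were in HSC and MPP4: 38.6, 0 and 140 CPM in heterozygous HSC, against 241, 228 and 32.7 CPM in wild-type HSC. MPP4 held 67.5, 71.8 and 24.4 CPM in heterozygous libraries, against 78.3, 184 and 222 CPM in wild-type ones. MPP2 and MPP3, although sorted as Sca-1-positive, had a count in 2 of 6 and 3 of 6 libraries. Pooled, Ly6a stood at 67.8 CPM in LSK populations and 1.09 CPM in CMP and MEP, 62.2-fold with a wide counting interval (10.7 to 2497). It rose in LSK populations by 1.37 ± 0.29 by limma (adjusted p = 0.00152), and by 1.33 without the 9 libraries that stood apart (limma adjusted p = 0.0130). Fits to 1 genotype alone did not pass limma (1.16, adjusted p = 0.171, in heterozygotes and 1.57, adjusted p = 0.0726, in wild types). Il7r and Ly6a were the 2 members of 8 tested that passed limma in this comparison, where 7.83% of all genes passed. Reads of Ly6a and of its near copies Ly6c1 and Ly6c2 may be split by the counting, which is not given.

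Cd34, a sialomucin of progenitors and vessel walls, was highest in MPP3 and CMP, both sorted as CD34-positive. MPP3 held 408, 438 and 629 CPM in heterozygous libraries and 0, 724 and 336 CPM in wild-type ones, the 724 CPM being 2 counts in a shallow library. CMP held 146, 595 and 420 CPM in heterozygous libraries and 215, 290 and 170 CPM in wild-type ones. MPP2, sorted as positive, had only 25.2, 52.0 and 96.5 CPM in heterozygous libraries and 194, 0 and 177 CPM in wild-type ones, a range that overlapped HSC. HSC, sorted as negative, had 57.8, 0 and 93.2 CPM in heterozygous libraries and 103, 57.0 and 0 CPM in wild-type ones. Pooled, Cd34 stood at 287 CPM in the CD34-positive populations and 91.1 CPM in HSC and MEP, 3.15-fold (exact 95% interval 2.36 to 4.27). The difference was 1.38 ± 0.38 by limma (adjusted p = 0.163), where 0.123% of genes passed, and 2.34 by edgeR (adjusted p = 0.00571), where 2.08% passed. Without the 6 shallow libraries it passed limma (1.44, adjusted p = 0.0131).

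In MEP, Cd34 was counted only in heterozygous libraries. Cd34 was found at 207, 133 and 217 CPM in heterozygous MEP, from 16, 10 and 19 counts, and at 0 in all 3 wild-type MEP libraries. The groups did not overlap, which held for 12% of 6501 genes in MEP. The 45 counts against 0 of 194149 put heterozygous MEP at least 12.1-fold higher than the limit of 3 counts (15.5 CPM). Heterozygous MEP library 3 and wild-type MEP libraries 2 and 3 had high neutrophil sums (27972, 33147 and 11448 CPM). By limma the difference was 3.09 ± 0.88 (adjusted p = 1), in a comparison where 0% of 6501 genes passed and 47 had an unadjusted p under 0.05. It passed edgeR (6.21, adjusted p = 0.00774, where 0.122% of genes passed) and DESeq2 (6.00, adjusted p = 0.0338, share of genes not given). The fold changes of edgeR and DESeq2 depend on the prior count since wild-type MEP is at 0. CMP and MEP share a pool within each genotype. In heterozygotes Cd34 was 2.21-fold higher in CMP than in MEP (exact 95% interval 1.56 to 3.20), and in wild types at least 14.6-fold. The heterozygous libraries overlapped, since CMP library 1 (146 CPM) lay below MEP libraries 1 and 3, and the wild-type ones did not. The share of all genes without overlap between CMP and MEP was not counted. Over both genotypes CMP exceeded MEP by 2.07 ± 0.62 by limma (adjusted p = 1; 0.0154% of genes passed) and by 3.77 by edgeR (adjusted p = 9.93e-04; 0.674% passed). Granulocyte-monocyte precursor genes (Mpo, Elane, Prtn3 and Ctsg), which were high in CMP, summed to 626 to 933 CPM in heterozygous MEP and 106 to 2354 CPM in wild-type MEP, with overlap. Summed HSC markers lay higher in heterozygous MEP, 388 to 706 CPM against 171 to 335 CPM in wild-type MEP, without overlap; their part in the Cd34 difference was not tested. Cd34 overlaps the gene Gm16897 on the other strand, and whether the counting used strand is not given.

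Fcgr3 encodes CD16, a low-affinity receptor for antibodies. The CD16/32 antibody also recognises the product of Fcgr2b, which had 31 counts and is a separate gene 74.6 kb away. Fcgr3 had 57 counts. CMP, sorted as CD16/32 low, held 162, 22.4 and 48.5 CPM in heterozygous libraries and 89.8, 106 and 0 CPM in wild-type ones. MEP, sorted as negative, held 0, 0 and 11.4 CPM in heterozygous libraries and 0, 85.7 and 39.1 CPM in wild-type ones. The populations did not overlap in heterozygotes and overlapped in wild types. How many of all genes separate CMP from MEP in this way was not counted. The wild-type MEP libraries with Fcgr3, numbers 2 and 3, were those with neutrophil sums of 33147 and 11448 CPM; neutrophils express Fcgr3, and their part was not tested. Pooled, Fcgr3 was 3.49-fold higher in CMP than in MEP (exact 95% interval 1.57 to 8.78), and the limma difference of 1.001 ± 0.52 did not pass (adjusted p = 1). The highest single value, 274 CPM in wild-type MPP3 library 1, rests on 2 counts in a shallow library with 20400 CPM of neutrophil genes.

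Ptprc, the phosphatase CD45 of all nucleated blood cells, was the most evenly detected member. It had counts in all 12 CMP and MEP libraries and in 22 of 24 LSK libraries. LSK populations ranged from 0 to 528 CPM in heterozygous libraries (median 194 CPM) and from 0 to 499 CPM in wild-type ones (median 338 CPM). CMP and MEP ranged from 77.8 to 130 CPM in heterozygous libraries (median 106 CPM) and from 58.6 to 275 CPM in wild-type ones (median 176 CPM). Pooled, Ptprc stood at 253 CPM in LSK populations and 128 CPM in CMP and MEP, 1.98-fold (exact 95% interval 1.57 to 2.50). The difference was 0.63 ± 0.36 by limma (adjusted p = 0.271), where 7.83% of 6501 genes passed. By edgeR it was 1.02 (adjusted p = 0.00470), where 29.6% of 1633 genes passed. MPP2 and MPP4 led the order of populations and MEP ended it, with overlap between all neighbours.

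**Figure D3:**
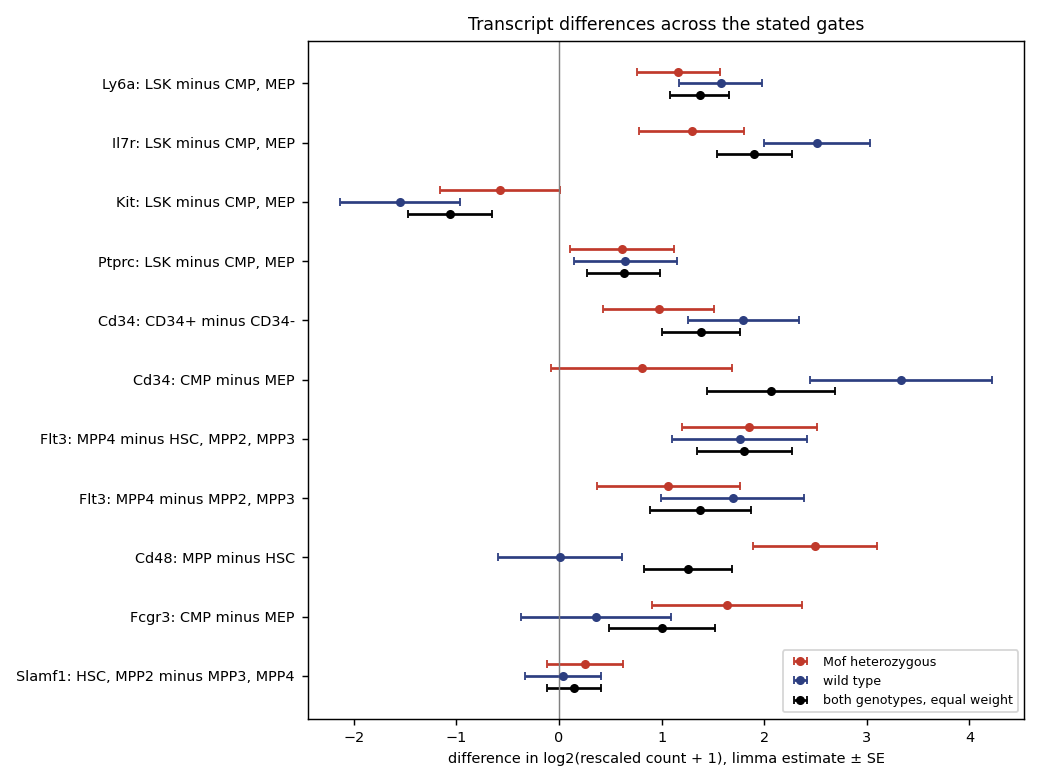
Differences across the stated gates (x axis, log2(rescaled count + 1), limma estimate ± SE) for each gene and comparison (y axis), with heterozygous libraries above wild-type ones and both together below. Ly6a and Il7r are furthest from 0 relative to their error; for Cd48 the heterozygous value is 2.50 and the wild-type value 0.01, and for Cd34 in CMP minus MEP they are 0.81 and 3.33.

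Between genotypes, no member passed limma on average over the 6 populations, where 0.0769% of 6501 genes passed and 679 had an unadjusted p under 0.05. In these bulk libraries fewer cells of a type and less RNA per cell cannot be told apart. Kit was higher in heterozygotes by 1.07 ± 0.39 (limma adjusted p = 0.302; edgeR 0.74, adjusted p = 0.174), but by 0.59 without the 6 shallow libraries (limma adjusted p = 0.475) and 0.69 without the 9 that stood apart (limma adjusted p = 0.400). Cd34 was higher by 0.98 ± 0.36 (limma adjusted p = 0.308; edgeR 1.35, adjusted p = 0.0693), and Flt3 by 0.72 ± 0.33 (limma adjusted p = 0.430), or 0.38 without the shallow libraries (limma adjusted p = 0.777). Only 5 members (Kit, Cd34, Flt3, Il7r and Ptprc) were in the edgeR test. It passed none of them, and 1.9% of 1633 genes. The other members lay between -0.56 (Il7r) and 0.25 (Cd48), against a median of 0.13 over all genes. Kit and Cd34 passed DESeq2 (0.999, adjusted p = 0.0144, and 1.58, adjusted p = 0.00428). The share of all genes that passed DESeq2 is not given, so how common such a pass was cannot be read here.

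By population, the 3 heterozygous libraries of a member lay wholly above the 3 wild-type ones in 6 of 54 member and population pairs, and wholly below in 4. Of 6501 genes, the share without overlap between genotypes was 23.1% in MPP3, 14.5% in MPP2, 12.6% in CMP, 12% in MEP, 9.84% in MPP4 and 7.29% in HSC. Kit was above in MPP2 (312 to 386 CPM in heterozygotes, against 0 to 243 CPM in wild types) and in MEP. Flt3 was above in MPP3 (97.8 to 188 CPM, against 0 to 48.0 CPM in wild types), and Cd34 and Cd48 in MEP. Wild-type MPP3 held 1 count of Flt3, whose 95% counting interval reaches 180 CPM, above the pooled 138 CPM in heterozygotes. Of all genes, 21.3% lay above in heterozygous MPP3. Ly6a was above in MPP3, at 51.1, 25.0 and 41.9 CPM in heterozygotes and 0 in wild types, but 3 counts over the shallow wild-type MPP3 libraries would be 97.1 CPM, so no difference was detectable at this depth. Below were Ly6a in MPP4, Il7r in MPP2, and Ptprc in MPP4 and CMP. Il7r in MPP2 stood at 50.3, 0 and 24.1 CPM in heterozygotes, against 194, 405 and 177 CPM in wild types, from 2, 5 and 2 counts (limma difference -2.58 ± 0.84, adjusted p = 0.123). B cell genes moved with it: 676 to 1334 CPM in heterozygous and 2904 to 5578 CPM in wild-type MPP2, without overlap, and their part was not tested. Ptprc in CMP lay at 130, 123 and 121 CPM in heterozygotes, against 180, 172 and 275 CPM in wild types (limma difference -0.62 ± 0.82, adjusted p = 1). In MPP3, Kit had 528, 425 and 754 CPM in heterozygotes, against 0, 0 and 480 CPM in wild types, with overlap (limma difference 3.12 ± 0.95, adjusted p = 0.0753). The 0s came from wild-type MPP3 libraries 1 and 2, which are shallow. All genes had a median of 0.68 in this comparison, and pooled Kit was 1.75-fold higher in heterozygotes (exact 95% interval 0.92 to 3.74). Cd48 in HSC, with no count in heterozygotes, differed by -1.78 ± 0.74 (limma adjusted p = 0.379).

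**Figure D4:**
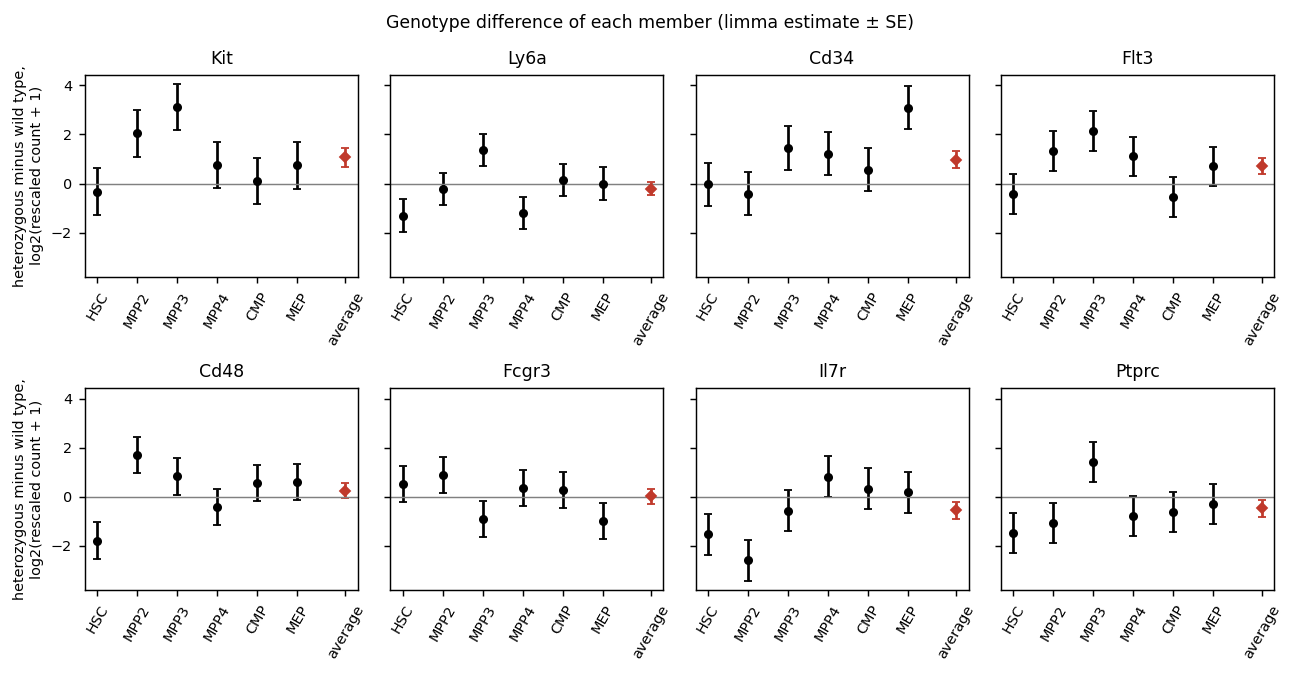
Heterozygous minus wild type (y axis, log2(rescaled count + 1), limma estimate ± SE) for the 8 members that passed the filter, in each population and on average (red diamond). The largest values are 3.12 for Kit in MPP3 and 3.09 for Cd34 in MEP, and the lowest is -2.58 for Il7r in MPP2. In MPP3, where wild-type libraries 1 and 2 are shallow, all genes had a median of 0.68.

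Related genes were read beside the members. Of all 6501 genes, 7.83% passed limma between LSK populations and CMP with MEP, 111 higher and 398 lower. Of the Ly6 family, 2 of 3 tested genes rose in LSK populations: Ly6c2 by 1.46 (limma adjusted p = 0.0458) and Ly6d, a gene of lymphoid and B cell progenitors, by 1.22 (limma adjusted p = 0.0441). The list's median was 1.22, against -0.26 over all genes. Of 13 tested among 18 other stem and progenitor surface proteins, 2 rose in LSK populations and 1 fell. Cd24a, a glycoprotein of B cell precursors and other blood cells, rose by 1.56 (limma adjusted p = 1.96e-04) and Cd93 by 0.95 (limma adjusted p = 0.0345). Itga2b (CD41), an integrin of megakaryocytes and their progenitors, fell by 1.35 (limma adjusted p = 0.0192). Of 8 tested growth factor receptors, Epor, the erythropoietin receptor, was lower in LSK populations by 0.89 (log2 difference -0.89, limma adjusted p = 0.0401). Csf2rb, the shared chain of the IL-3 and GM-CSF receptors, was higher in MPP populations than in HSC (1.78, limma adjusted p = 0.0355). Across the CD150 gate, where 0.138% of genes passed, it was lower in HSC and MPP2 than in MPP3 and MPP4 (-1.80, limma adjusted p = 0.0170).

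Of 18 tested signalling genes below Kit, Flt3 and IL7R, none rose and 2 fell in LSK populations by limma, the exchange factor Sos1 (-1.002, limma adjusted p = 0.0352) and the transcription factor Stat5a (-0.95, limma adjusted p = 0.0473). The list's median was -0.13, and a share of 2 in 18 is near that of all genes. By edgeR, with 8 of the list tested, none fell and 1 rose, Pik3cd, a PI3-kinase subunit of blood cells (1.04, adjusted p = 0.00136; limma 0.64, adjusted p = 0.221), named after its value was seen. The labels do not say which proteins the lineage stain held. No SLAM family gene of 3 tested passed in any of these comparisons. The most counted were Cd84, with a log2 difference of 0.09 between LSK populations and CMP with MEP, and Slamf7 with 0.92 (limma adjusted p = 0.0627). Of the Fc receptor list, only Fcer1g was tested and it did not pass (0.15, limma adjusted p = 0.859). None of the related genes passed limma on average between genotypes.

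The 6 members with at least 100 counts were compared in pattern over the 12 groups of population and genotype, as a description (Pearson correlation of log2(pooled CPM + 10) among 3546 genes). The groups differ in depth and share pools. Nearest to Kit were Srp72 (0.97), Rgs18 (0.93) and the integrin gene Itga6 (0.92). Nearest to Cd34 were Ncoa4 (0.87), Pkm (0.86) and Gmfg (0.84), and nearest to Flt3 were Fis1 (0.88), Emb (0.83) and H2afy (0.83). Il7r was nearest to Lsp1 (0.93), Irf9 (0.92) and Rsad2 (0.91), and Cd48 to Bag1 (0.89), 1810022K09Rik (0.86) and Satb1 (0.85). Ptprc was nearest to Herc1 (0.90), Xpo7 (0.89) and Shisa5 (0.84). Among the members themselves the closest pair was Flt3 and Cd48 (0.72), followed by Il7r and Ptprc (0.65), and the most opposed pair was Kit and Il7r (-0.63).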

How the data were processed

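Bone marrow cells of Mof heterozygous and wild-type mice were sorted into 6 populations and profiled by CEL-Seq2, with 3 libraries per population and genotype. The submitters' processing notes name BWA (0.6.2-r126) and mm10. How reads were counted, how molecular identifiers were treated and which annotation was used is not stated. What the authors deposited is a scaled signal for every gene. Each library's values have 1 common step, and 100% of them divide by it to a whole number (within 0.01), which returned the counts. The wild-type MEP file lacks 92 spike-in names, so the gene names after them stand too early. Its values were assigned by position. The rank correlation with wild-type CMP across genes was 0.353 with names as deposited and 0.905 by position. Il7r in wild-type MEP has 11, 6 and 14 counts under the deposited names and 0, 0 and 0 by position, and Kit 0, 4 and 0 against 15, 8 and 33.

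Counts were rescaled to a total of 41227. The main test was limma 3.58.1 (R 4.3.3) on log2(rescaled count + 1) with an intensity trend, fitted to the 36 libraries with a mean for each of the 12 groups. The filter was a mean rescaled count of at least 1 (6501 genes, 8 of the 9 members), with Benjamini-Hochberg adjustment at 0.05. The design was written for recovered counts on this scale. Such log differences can understate changes of low genes. They can also be larger than pooled ratios. Kit in LSK populations was -1.06 beside a pooled ratio of 0.88, and -0.34 without the 6 shallow libraries. Alternatives were edgeR 4.0.16 (quasi-likelihood, 1633 genes, 5 of the 9 members), DESeq2 1.42.0, other scalings, filters and pseudocounts, and libraries left out. For DESeq2 the share of all genes that passed is not given. CPM scale a count to its library's gene total. Ratios of pooled counts carry exact 95% intervals (Clopper-Pearson) and a count of 0 is bounded by 3 counts over the group; both cover counting error only. Scripts were tested on simulated data. Each pair of libraries in a group differed by more than sampling noise. The members and the gene lists were chosen with earlier results of these data known. All 9 members were named; other list genes were named when they passed limma, at most 4 per list and comparison, or else the 2 most counted. The 3 genes most alike in pattern were named for members with at least 100 counts. Genes with sequence stretches, and libraries high in neutrophil or B cell genes, were chosen after values were seen. Results of some genes of these lists are not reported here.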

Additional observations from a re-analysis of the deposited data

Results flagged for a closer look

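The genotype difference of Ly6a ran in opposite directions in 2 MPP populations. In MPP3 all 3 heterozygous libraries were above the wild-type ones (log2 difference 1.37 ± 0.67), and in MPP4 all 3 were below (-1.20 ± 0.67). The test of the difference between them gave 2.57 ± 0.94 and did not pass limma (adjusted p = 0.568). The 3 heterozygous MPP3 libraries held 8 counts, and the wild-type ones, of which 2 are shallow, held 0, so the MPP3 side is below the limit of 97.1 CPM.

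Cd34 differed between genotypes in how the LSK populations stood to CMP and MEP by edgeR (change of -3.21 on the log2 scale, adjusted p = 0.0408). Of 1633 genes, 36 passed edgeR for this change. The edgeR difference of Cd34 was -0.95 in heterozygotes (adjusted p = 0.101), where 177 genes passed. In wild types it was 2.26 (edgeR adjusted p = 0.0454), where 305 genes passed. By limma the change was -1.27 ± 0.77 and did not pass (adjusted p = 0.998). The wild-type side includes MEP, where Cd34 is at 0 in all 3 libraries.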

How the results depend on the processing

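No paired analysis was possible because the columns carry running barcode numbers that no 2 groups share. Alternatives other than leaving out 1 library numbered up to 12 per result. Il7r higher in LSK populations passed under every one except heterozygous libraries alone (1.29, limma adjusted p = 0.129). Ly6a was not in the edgeR test or in the fit filtered at a mean of 3. It passed in 8 of its 10 alternatives, all except wild-type (1.57) or heterozygous (1.16) libraries alone. Il7r and Ly6a passed in all 36 fits that left out 1 library (1.79 to 2.06 and 1.27 to 1.46). Results that did not pass limma but passed otherwise were the following, with limma, edgeR or DESeq2 adjusted p under 0.05. The share of all genes that passed DESeq2 is not given. Kit in LSK populations passed with DESeq2 (-0.92), TMM (-1.27) and RLE scaling (-1.37), and Ptprc with edgeR (1.02). Cd34 across its gate passed with edgeR (2.34), DESeq2 (2.23) and without the 6 shallow libraries (1.44). Flt3 in MPP4 passed with edgeR (3.32), DESeq2 (3.40), TMM (1.97), RLE (2.03), a pseudocount of 5 (0.96) and without the 9 libraries that stood apart (2.56). Against MPP2 and MPP3 alone it passed with edgeR (2.23), DESeq2 (2.57) and without those 9 (2.28). Cd48 over HSC passed without the shallow libraries (1.68) and in heterozygotes alone (2.50). Cd34 in CMP over MEP passed with edgeR (3.77), DESeq2 (3.67) and without the shallow libraries (2.07). Between genotypes, Kit passed with DESeq2 (0.999) and RLE (1.27), and Cd34 with DESeq2 (1.58) and RLE (1.34). Cd34 in MEP passed with edgeR (6.21) and DESeq2 (6.00).

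Without the shallow libraries differences shrank for Kit in LSK populations (-0.34), Flt3 in MPP4 within pools (0.91) and, between genotypes, Kit (0.59), Flt3 (0.38) and Il7r (-0.04).

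Directions turned for results that were not called: Slamf1 in MPP2 with DESeq2 (0.0117), and the genotype differences of Cd48 without the shallow libraries (-0.16), Fcgr3 with a pseudocount of 5 (-0.0446) and without the shallow libraries (-0.17), and Ptprc without the 9 libraries (0.0442). The causes were not tested. Leaving out 1 library gave Kit in LSK populations -1.24 to -0.87, passing without heterozygous HSC library 3 (-1.20) or wild-type MPP3 library 3 (-1.24). Cd34 across its gate ranged from 1.21 to 1.57, passing without wild-type MPP3 library 1. Flt3 in MPP4 ranged from 1.25 to 2.39 and passed in 10 of 36 fits: without heterozygous HSC 1, MPP2 2, MPP4 3 or CMP 1, or without wild-type HSC 1, HSC 3, MPP2 3, MPP3 1, MPP3 3 or MPP4 3 (2.39). Against MPP2 and MPP3 it ranged from 0.82 to 1.96 and passed without that library. Slamf1 across its gate ranged from -0.048 (without heterozygous HSC library 1) to 0.288 and was also below 0 without wild-type HSC library 1, Fcgr3 between genotypes from -0.14 to 0.16, and Kit between genotypes from 0.88 to 1.32, passing without heterozygous HSC library 2.

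Against total scaling, the median of all genes in LSK populations minus CMP and MEP moved by -0.19 with TMM and -0.28 with RLE. Of the calls there, 111 were higher and 398 lower, against 132 and 1445 with TMM. For MPP4 the median moved by 0.16 and 0.20, and between genotypes by 0.13 and 0.19. Relative to the median, Kit in LSK populations was -0.80, -0.82 and -0.83, and Fcgr3 between genotypes was below 0 in all 3 scalings. The number of genes that passed differed between limma and edgeR by over 1.5 times for CD34 (8 and 34), MPP4 (25 and 118), MPP4 within pools (17 and 71), CMP over MEP (1 and 11), CD150 (9 and 4) and genotype (5 and 31), on 6501 and 1633 genes. Leaving out 1 library moved the limma counts from 0 to 18 for CD34, 16 to 67 for MPP4, 1 to 119 for MPP over HSC, 4 to 24 for CD150, 0 to 4 for CMP over MEP, 2 to 76 for genotype and 332 to 760 for LSK populations. Depth limits Slamf1, Fcgr3 and every 0 in the shallow libraries.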
